A study of Mus musculus with 6 samples.

Results

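The endoplasmic reticulum (ER) folding and secretion genes are 43 mouse genes that encode the machinery by which a cell imports, folds, modifies and checks proteins bound for the cell surface or for secretion. They were chosen by name, and each was read on the probe set with the highest mean among those annotated to that gene alone. Of the 43 genes 42 could be read in this way, out of 12394 genes compared in all. The exception was Sec61g, a small subunit of the translocation channel, whose probe set is annotated to several genes. None of the 42 probe sets was dim, meaning below 5.25, the 40th percentile of all probe sets on the log2 scale.

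The cells were regulatory T (Treg) cells, CD4 T cells that restrain immune responses, sorted as CD4+CD25+YFP+ cells from the spleen and lymph nodes of mice and measured on Affymetrix arrays. The 3 arrays labelled GATA3KO came from Gata3F/F Foxp3YFP-Cre mice, in which both alleles of the transcription factor gene Gata3 are floxed, so that a Cre recombinase driven by the Treg gene Foxp3 can delete them. The 3 arrays labelled WT came from Gata3F/+ Foxp3YFP-Cre mice, which carry the same Cre and 1 floxed Gata3 allele, and so are not unmodified animals. Each group is described as 3 mice, with no age given in the sources used here.

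Proteins enter the ER through the Sec61 channel, lose their signal peptide, receive sugar chains and fold with the help of chaperones, disulfide isomerases and prolyl isomerases. Misfolded proteins are pulled back out and degraded, and an overload triggers the unfolded protein response, in which the transcription factors Xbp1, Atf6 and Atf4 raise the levels of this machinery. Lymphocytes are known to enlarge this machinery when they become secretory, most of all plasma cells, the antibody-secreting form of B cells.

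The labels could not be checked on the targeted gene. The Gata3 probe set read 9.83, 9.98 and 9.71 in the arrays labelled GATA3KO and 9.57, 9.41 and 9.47 in those labelled WT, which is higher and not lower. The groups did not overlap, and the rise passed the threshold used below (log2 change 0.35 ± 0.07, SE, adjusted p = 0.0387 by limma). With each array left out in turn, Gata3 passed in 2 of 6 fits. Where this probe set lies relative to the floxed part was not analysed here, and probes that lie beyond a deletion cannot test it. Directions below therefore rest on the labels. Cd3d, Cd3e and Cd3g, chains of the T cell receptor complex, and Ctla4, an inhibitory receptor of Treg cells, were well detected in all arrays, while the Foxp3 probe set was dim, with 3.82, 4.06 and 3.93 in the arrays labelled GATA3KO and 3.85, 3.94 and 3.91 in those labelled WT. All 11 measured Treg and T cell genes had a positive change, as did 53.0% of all genes, with a median log2 change of 0.09. Of the 11, Gata3 alone passed, while 1.44% of all genes passed higher. With so few arrays the precision of all values is limited.

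The promoters of these genes show how many of them share a control sequence of the unfolded protein response. The ER stress response element (ERSE), which is CCAAT and CCACG with any 9 bases between them, was searched on both strands of RefSeq promoters of assembly GRCm38.p6, from 250 bases before to 50 bases after each gene's start. The 35 members with an entry had 39 promoters. Of these promoters 8, belonging to 8 members, had at least 1 match, whereas 0.119% of all 32851 promoters had one. They are shown so that the levels of members carrying this element can be read beside it, with the fixed letters of the element in capitals:

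Hspa5, chr2:34772025-34772043, plus strand: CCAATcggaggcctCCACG

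Calr, chr8:84847075-84847093, plus strand: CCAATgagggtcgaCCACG

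Hsp90b1, chr10:86705638-86705656, minus strand: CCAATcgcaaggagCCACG

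Hsp90b1, chr10:86705533-86705551, plus strand: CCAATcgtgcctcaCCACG

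Canx, chr11:50325800-50325818, minus strand: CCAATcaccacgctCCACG

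Pdia6, chr12:17266491-17266509, plus strand: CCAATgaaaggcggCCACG

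Dnajc3, chr14:118937827-118937845, plus strand: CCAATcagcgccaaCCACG

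Creld2, chr15:88819520-88819538, minus strand: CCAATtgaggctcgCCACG

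Syvn1, chr19:6046532-6046550, plus strand: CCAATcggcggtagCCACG

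A shorter form, ERSE-II, is ATTGG and CCACG with any 1 base between them, and so shares its last 5 letters with the longer element. It matched 2 of the 39 member promoters, those of the further members Herpud1 and Dnajb11, and 0.0365% of all promoters. A match describes these letters and does not make them a bound site.

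In the comparison of arrays labelled GATA3KO with arrays labelled WT, the ER folding and secretion genes were nearly level, with 2 exceptions that were both folding enzymes. Ppic, the gene of the prolyl isomerase cyclophilin C, rose 1.91-fold, and Prdx4, the gene of the peroxiredoxin of the ER lumen, rose 1.49-fold. These were the only members past the threshold, an adjusted p under 0.05 in limma over all 12394 genes: 2 of 42 were higher and 0 lower, while 1.44% of all genes tested were higher and 0.766% lower. Before adjustment 6 members were higher and 3 lower (p under 0.05), against 8.63% and 5.8% of all genes. The median log2 change over the members was 0.05, and 0.0078 over all genes tested. For 38 of the 42 members the 95% confidence interval of the change lay wholly within 1.3-fold in either direction, which held for 76.4% of all genes. The exceptions were Ppic, Prdx4, Hsp90b1 and Dnajc3. No member was dim, while 4504 of the 12394 genes were, and these shares were not compared at like brightness.

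**Figure D1:**
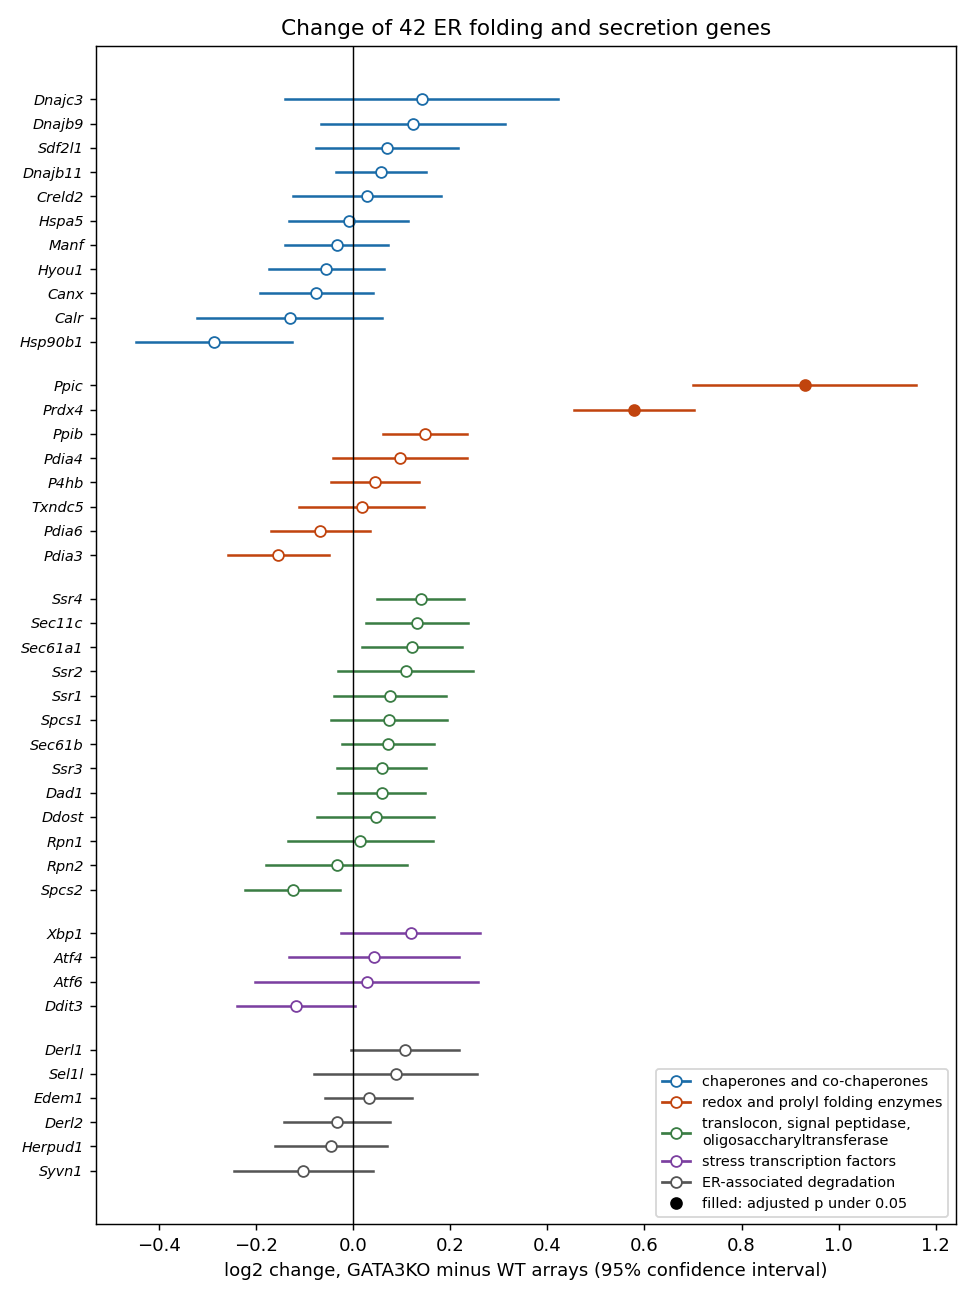
Log2 change of each of the 42 measured members (arrays labelled GATA3KO minus arrays labelled WT) with its 95% confidence interval, ordered by role down the page and by size within a role. Filled points passed an adjusted p under 0.05. Ppic (0.93) and Prdx4 (0.58) lie to the right of all others, and the remaining points lie between -0.29 and 0.15.

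The groups of arrays did not overlap for 10 higher and 5 lower members of 42, against 11.3% and 8.51% of all genes. The 10 higher ones were Ppic, Prdx4, Ppib, P4hb, Dnajb11, Sec61a1, Ssr3, Ssr4, Sec11c and Dad1. The 5 lower ones were Hsp90b1, Pdia3, Pdia6, Spcs2 and Ddit3. Apart from Ppic and Prdx4, these separations were of 0.29 or less on the log2 scale.

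**Figure D2:**
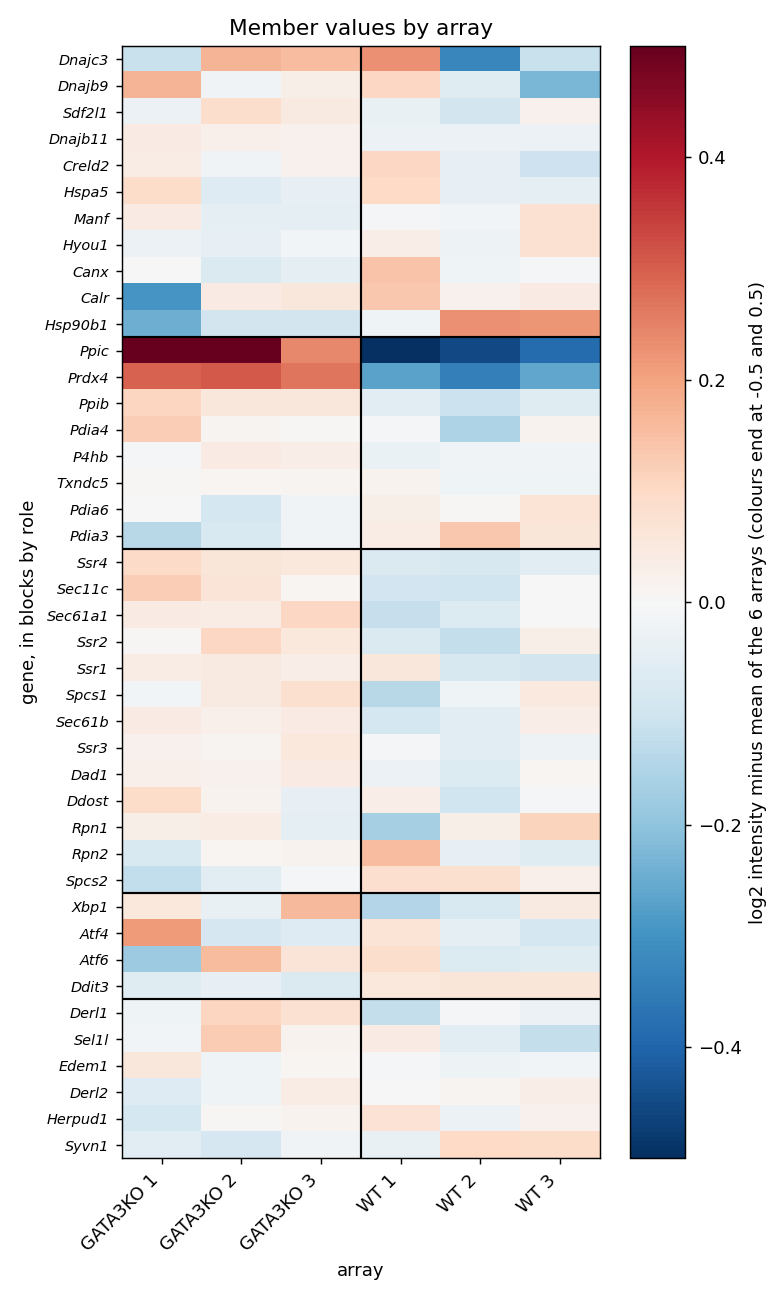
Log2 intensity of each member in each array, minus its mean over the 6 arrays, with arrays labelled GATA3KO on the left and WT on the right, and lines between the blocks of chaperones, folding enzymes, translocon genes, stress factors and degradation genes. Colours end at -0.5 and 0.5. The Ppic and Prdx4 rows are red in all arrays labelled GATA3KO and blue in all arrays labelled WT, and most other rows are pale.

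Among the enzymes of oxidative and prolyl folding, 6 of 8 genes had a positive change, and 2 passed, both higher. Of all genes 53.0% had a positive change and 1.44% passed higher. Prdx4 breaks down hydrogen peroxide in the ER lumen, where it can pass the oxidising equivalents on to disulfide isomerases. Prdx4 read 8.29, 8.30 and 8.26 in the arrays labelled GATA3KO and 7.72, 7.65 and 7.73 in those labelled WT. The arrays within each group lay close together and the groups were wide apart. Its log2 change was 0.58 ± 0.06 (SE, n = 3 and 3, adjusted p = 0.00152 by limma), with means of 8.28 ± 0.02 and 7.70 ± 0.04 (SD, n = 3 each). By p it ranked 10 of 12394 genes.

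The size of the Prdx4 rise rests on its brightest probe set. On a second probe set Prdx4 read 6.49, 6.34 and 6.36 in the arrays labelled GATA3KO and 6.21, 6.34 and 6.41 in those labelled WT, with overlapping groups and a log2 change of 0.07 ± 0.09 (SE). On the remaining one Prdx4 read 5.93, 5.77 and 5.67 in the arrays labelled GATA3KO and 5.27, 5.58 and 5.60 in those labelled WT, a log2 change of 0.30 ± 0.12 (SE, adjusted p = 0.288 by limma over all probe sets). All 3 changes were positive, and 1 passed. With the mean of the 3 probe sets the log2 change was 0.32 and the call was lost (adjusted p = 0.0699 by limma). None of the ERSE forms searched matched the Prdx4 promoter, which is printed because Prdx4 is the member with the smallest p (GRCm38.p6, chrX:155338411-155338710, minus strand):

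Prdx4: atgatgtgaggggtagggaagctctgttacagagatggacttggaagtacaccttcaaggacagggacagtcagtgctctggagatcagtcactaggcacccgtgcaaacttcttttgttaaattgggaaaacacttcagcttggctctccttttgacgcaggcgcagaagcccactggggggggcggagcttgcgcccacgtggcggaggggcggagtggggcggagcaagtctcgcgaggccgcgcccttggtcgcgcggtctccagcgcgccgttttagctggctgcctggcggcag

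Ppic encodes cyclophilin C, a prolyl isomerase that enters the secretory pathway and binds the drug cyclosporin. Ppic read 7.80, 7.94 and 7.54 in the arrays labelled GATA3KO and 6.74, 6.84 and 6.91 in those labelled WT. Replicate 3 of the arrays labelled GATA3KO was the lowest of its group and still lay above every array labelled WT. The log2 change was 0.93 ± 0.10 (SE, n = 3 and 3, adjusted p = 0.00282 by limma), the rise ranked 11 of 12394 by size, and Ppic has 1 probe set. With each array left out in turn both genes passed in all 6 fits, with adjusted p up to 0.0145 for Prdx4 and 0.0212 for Ppic.

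Ppib, the gene of cyclophilin B, a prolyl isomerase of the ER lumen related to Ppic, read 11.37, 11.32 and 11.32 in the arrays labelled GATA3KO and 11.21, 11.16 and 11.20 in those labelled WT. The groups were separate, but the difference was small and did not pass (log2 change 0.15 ± 0.04, SE, adjusted p = 0.0925 by limma). Its second probe set changed by a similar 0.19 ± 0.05 (SE) without passing (adjusted p = 0.147 by limma over all probe sets). Ppib and Ppic thus shared their sign, at 0.15 and 0.93.

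The disulfide isomerases went both ways and none passed. Pdia3, which forms disulfide bonds in glycoproteins held by calnexin and calreticulin and takes part in loading peptides on class I histocompatibility molecules, read 10.81, 10.87 and 10.93 in the arrays labelled GATA3KO and 10.98, 11.08 and 11.01 in those labelled WT. All arrays labelled GATA3KO lay below all arrays labelled WT, with a log2 change of -0.15 ± 0.05 (SE, adjusted p = 0.139 by limma). Pdia6 also had lower values without overlap (-0.07 ± 0.05, SE). P4hb, the classical protein disulfide isomerase, had a log2 change of 0.05, Txndc5 of 0.02 and Pdia4 of 0.10, and each confidence interval spanned 0.

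**Figure D3:**
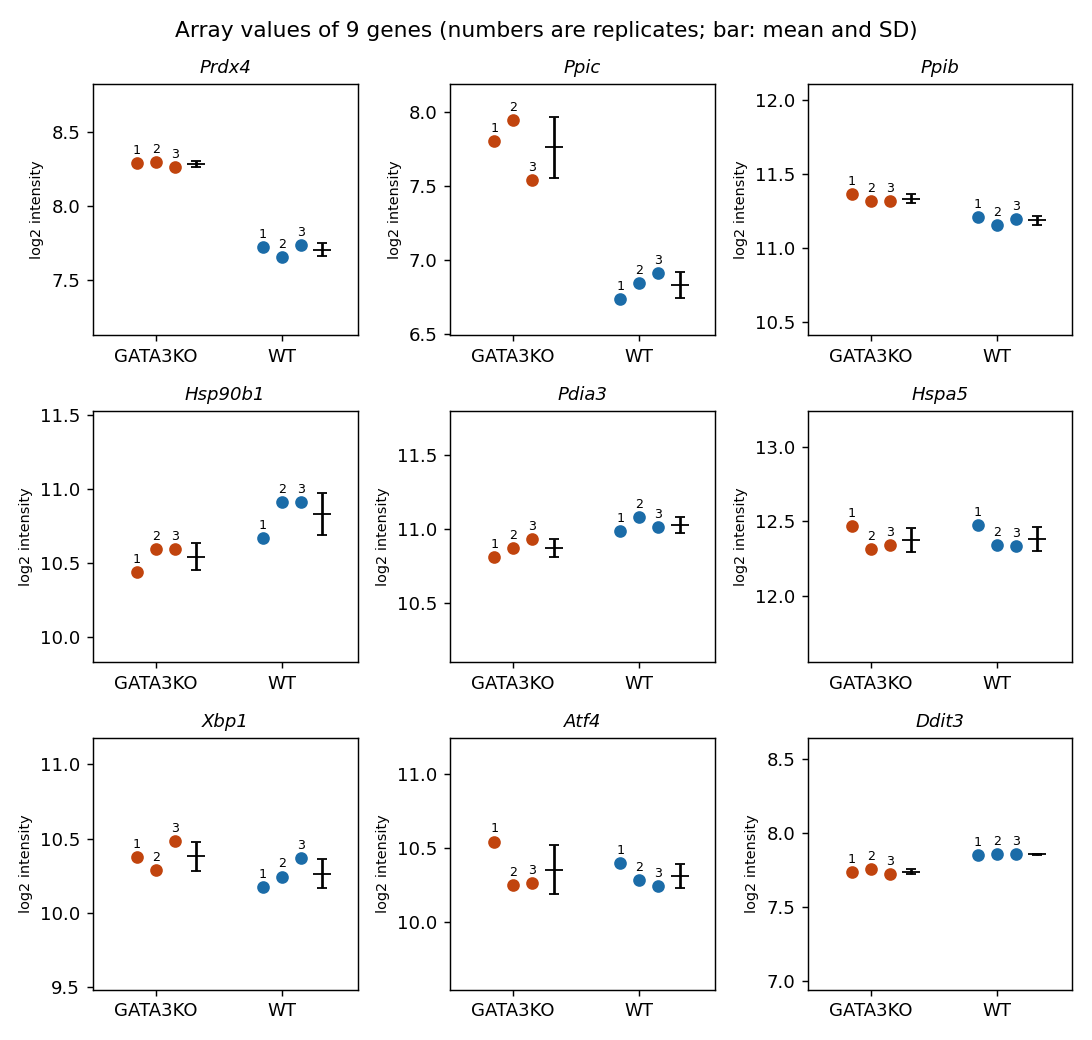
Log2 intensity of 9 members in each array, with arrays labelled GATA3KO on the left and WT on the right of each panel, replicate numbers above the points, and the mean with its SD beside them. All panels span 1.7 log2 units, so distances can be compared between panels and levels cannot. Prdx4 and Ppic show a wide gap between the groups, Ppib, Hsp90b1, Pdia3 and Ddit3 a narrow one, and Hspa5, Xbp1 and Atf4 none.

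Among 11 luminal chaperones and their partners, 5 changes were positive and 6 negative, 0 passed, and the median log2 change was -0.0091. Of all genes 53.0% were positive, 1.44% passed higher and 0.766% lower. Hspa5, the gene of BiP, the main chaperone of the ER and a common reporter of ER stress, read 12.47, 12.32 and 12.34 in the arrays labelled GATA3KO and 12.48, 12.34 and 12.34 in those labelled WT. The groups lay on top of each other, and in each group replicate 1 was the highest. The log2 change was -0.0091 ± 0.05 (SE, adjusted p = 0.964 by limma), with a 95% confidence interval from -0.13 to 0.11, and a further probe set changed by -0.04. Near matches to the ERSE were not searched. The Hspa5 promoter is printed with its exact match in capitals, because Hspa5 is a common reporter of ER stress (GRCm38.p6, chr2:34771840-34772139, plus strand):

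Hspa5: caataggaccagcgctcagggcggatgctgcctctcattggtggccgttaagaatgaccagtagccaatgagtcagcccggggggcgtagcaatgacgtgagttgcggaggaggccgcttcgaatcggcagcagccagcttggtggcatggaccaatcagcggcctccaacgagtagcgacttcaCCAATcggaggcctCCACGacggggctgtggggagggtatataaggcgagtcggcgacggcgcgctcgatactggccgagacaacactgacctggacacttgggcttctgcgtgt

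Hsp90b1, the gene of the ER-resident member of the Hsp90 family, which folds Toll-like receptors and integrins, had the largest negative change of the members. Hsp90b1 read 10.44, 10.60 and 10.60 in the arrays labelled GATA3KO and 10.67, 10.92 and 10.91 in those labelled WT. The groups did not overlap, and replicate 1 was the lowest array in each group. The log2 change was -0.29 ± 0.07 (SE) and did not pass (adjusted p = 0.0818 by limma). It passed with the replicate number as a block (adjusted p = 0.0118 by limma) and with array quality weights (adjusted p = 0.0284 by limma). Without WT replicate 1 it was -0.37 and passed (adjusted p = 0.0146 by limma), and the other 5 fits with 1 array left out did not pass, with adjusted p up to 0.303. A second Hsp90b1 probe set changed by -0.14 ± 0.12 (SE).

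The lectin chaperones Calr (calreticulin) and Canx (calnexin), which hold newly made glycoproteins until they are folded, had log2 changes of -0.13 ± 0.09 and -0.08 ± 0.05 (SE). Calr read 10.62, 10.96 and 10.97 in the arrays labelled GATA3KO and 11.05, 10.94 and 10.96 in those labelled WT, so that replicate 1 of the arrays labelled GATA3KO stood alone below the rest. Canx read 10.70, 10.62 and 10.65 in the arrays labelled GATA3KO and 10.84, 10.67 and 10.69 in those labelled WT, where replicate 1 of WT was the highest and the groups overlapped. The 2 further Canx probe sets went opposite ways, at -0.18 and 0.20, and neither passed.

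None of the co-chaperones and smaller stress-inducible proteins passed. Dnajc3, a J-domain co-chaperone of BiP, had the largest positive change of the chaperones and the widest interval of the members that did not pass, with 9.89, 10.17 and 10.15 in the arrays labelled GATA3KO and 10.23, 9.67 and 9.89 in those labelled WT (log2 change 0.14 ± 0.13, SE). The groups overlapped, with both the highest and the lowest Dnajc3 value in the arrays labelled WT. Dnajb9, another J-domain partner of BiP, read 9.01, 8.82 and 8.87 in the arrays labelled GATA3KO and 8.94, 8.78 and 8.61 in those labelled WT (log2 change 0.12 ± 0.08, SE). Its groups overlapped too. Dnajb11, which brings clients to BiP, had a log2 change of 0.06 with separate groups, Sdf2l1, a partner of Dnajb11, of 0.07, and Creld2 of 0.03. Hyou1, the nucleotide exchange factor of BiP, had a log2 change of -0.06, and Manf, a small protein that binds BiP and is secreted under stress, of -0.03.

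None of the 8 members with an ERSE passed the threshold, which 1.44% of all genes passed higher and 0.766% lower. Their log2 changes ran from -0.29 (Hsp90b1) to 0.14 (Dnajc3), with a median of -0.07, beside 0.0078 over all genes. Of the 8, 2 were positive and 6 negative, while 53.0% of all genes were positive. Whether the element has a part in these levels was not tested. Of the genes that rose, Prdx4 had no match, and Ppic had no promoter entry and was not searched.

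None of the genes of the entry route into the ER passed, while 1.44% of all genes passed higher and 0.766% lower. Of 13 measured genes of the translocon, the signal peptidase and the oligosaccharyltransferase, 11 had a positive change, as did 53.0% of all genes, with a median log2 change of 0.07. At an unadjusted p under 0.05, 3 were higher (Ssr4, Sec11c and Sec61a1) and 1 lower (Spcs2), against 8.63% and 5.8% of all genes. Every one of the 13 confidence intervals lay within 1.3-fold, which held for 76.4% of all genes. Of 20 further genes of the entry route, 10 had a positive and 10 a negative change, with a median log2 change of -0.0053.

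Ssr4, a subunit of the translocon-associated protein complex, had the smallest p of these genes, and read 10.13, 10.10 and 10.09 in the arrays labelled GATA3KO and 9.97, 9.96 and 9.98 in those labelled WT. The groups were separate with a gap wider than the spread within either (log2 change 0.14 ± 0.04, SE, adjusted p = 0.121 by limma). Its 2 further probe sets went opposite ways, at -0.10 and 0.21. The other subunits of that complex, Ssr1, Ssr2 and Ssr3, had log2 changes of 0.08, 0.11 and 0.06. Sec61a1, the pore-forming subunit of the translocation channel, read 10.49, 10.49 and 10.56 in the arrays labelled GATA3KO and 10.34, 10.39 and 10.46 in those labelled WT (log2 change 0.12 ± 0.05, SE, adjusted p = 0.248 by limma). Over its 6 probe sets the changes ran from -0.09 to 0.13. Sec61b, another channel subunit, had a log2 change of 0.07.

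The signal peptidase, which cuts off signal peptides, was divided. Sec11c, a catalytic subunit, read 10.80, 10.74 and 10.68 in the arrays labelled GATA3KO and 10.58, 10.57 and 10.67 in those labelled WT (log2 change 0.13 ± 0.05, SE, adjusted p = 0.218 by limma). Spcs2, an accessory subunit, read 10.77, 10.83 and 10.88 in the arrays labelled GATA3KO and 10.97, 10.97 and 10.91 in those labelled WT (log2 change -0.12 ± 0.04, SE, adjusted p = 0.206 by limma). In both genes the groups were just separate, in opposite directions. Spcs1, a further accessory subunit, had a log2 change of 0.07. Of the oligosaccharyltransferase, which attaches sugar chains to asparagine, Dad1 had a log2 change of 0.06, Ddost of 0.05, Rpn1 of 0.01 and Rpn2 of -0.03.

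The transcription factors of the unfolded protein response showed no change past the threshold, with a median log2 change of 0.04 over 4 genes. Xbp1, whose messenger RNA is spliced by the stress sensor Ern1 to give the active factor, read 10.37, 10.29 and 10.48 in the arrays labelled GATA3KO and 10.18, 10.24 and 10.37 in those labelled WT. The groups overlapped, and the log2 change of 0.12 ± 0.06 (SE) did not pass (adjusted p = 0.446 by limma). On 3 further probe sets Xbp1 had log2 changes from -0.08 to -0.0057, so the sign was not shared. These arrays summarise probes by probe set and do not tell spliced from unspliced Xbp1.

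Atf4, the factor whose translation rises when the kinase Eif2ak3 slows protein synthesis, read 10.55, 10.25 and 10.27 in the arrays labelled GATA3KO and 10.40, 10.29 and 10.25 in those labelled WT (log2 change 0.04 ± 0.08, SE). Replicate 1 was the highest in each group. Ddit3, the gene of the stress factor CHOP and a target of Atf4, read 7.74, 7.75 and 7.72 in the arrays labelled GATA3KO and 7.85, 7.86 and 7.86 in those labelled WT. Its groups were tight and separate, but the log2 change was -0.12 ± 0.05 (SE) and did not pass (adjusted p = 0.368 by limma, which shares the spread across genes). Atf6, the membrane-bound factor that is cut in the Golgi to become active, read 6.26, 6.59 and 6.50 in the arrays labelled GATA3KO and 6.52, 6.37 and 6.38 in those labelled WT (0.03 ± 0.10, SE). Its groups overlapped fully. Activity of Atf6, Atf4 and Xbp1 is set largely after transcription, as background, and these levels do not measure it.

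Genes of ER-associated degradation, which returns misfolded proteins to the cytosol for destruction, were split evenly, with 3 positive and 3 negative changes. Their median log2 change was -0.00075, and 0 passed the threshold, which 1.44% of all genes passed higher and 0.766% lower. Derl1, a component of the exit channel, had the largest positive change, with 10.68, 10.81 and 10.78 in the arrays labelled GATA3KO and 10.58, 10.69 and 10.67 in those labelled WT (0.11 ± 0.05, SE, adjusted p = 0.368 by limma). Its groups overlapped by a small margin, and its 3 further probe sets changed by -0.16 to 0.18. Syvn1, the ubiquitin ligase of the pathway, had the largest negative change, with 7.61, 7.58 and 7.65 in the arrays labelled GATA3KO and 7.63, 7.76 and 7.76 in those labelled WT (-0.10 ± 0.06, SE). Replicate 1 of WT lay among the arrays labelled GATA3KO. Sel1l, the adaptor of Syvn1, read 7.02, 7.16 and 7.05 in the arrays labelled GATA3KO and 7.07, 6.98 and 6.91 in those labelled WT (0.09 ± 0.08, SE). Herpud1, a stress-inducible scaffold, read 9.18, 9.27 and 9.28 in the arrays labelled GATA3KO and 9.34, 9.24 and 9.29 in those labelled WT (-0.05 ± 0.05, SE). The groups overlapped for both. Edem1, which marks misfolded glycoproteins, had a log2 change of 0.03 and Derl2 one of -0.03.

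Of the 42 members, 25 had several probe sets, and the 49 further probe sets gave 0 changes past the threshold (limma over all probe sets), with 8 at an unadjusted p under 0.05. Over all 20393 probe sets 1.69% passed and 13.6% had an unadjusted p under 0.05. Of the 49, 7 were dim. The log2 changes of the 42 others lay between -0.18 and 0.30, with the highest value on a Prdx4 probe set.

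**Figure D4:**
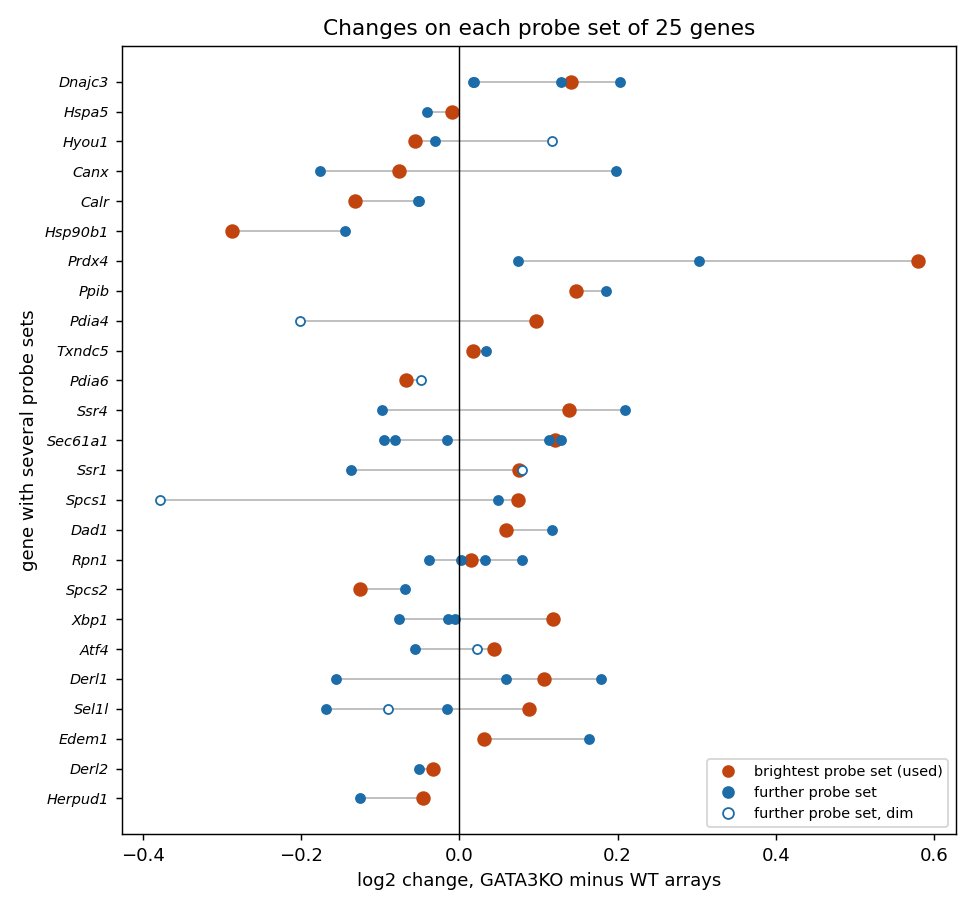
Log2 change (arrays labelled GATA3KO minus arrays labelled WT) on each probe set of the 25 members with several, with the brightest probe set in orange, further ones in blue and dim ones open. Prdx4 spans 0.07 to 0.58, and its probe sets are all positive, while those of Canx, Derl1, Xbp1 and Sec61a1 lie on both sides of 0.

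No gene in the rest of the ER pathway passed either. Of 94 further measured genes in 5 lists, 0 reached the threshold in limma, which 1.44% of all genes passed higher and 0.766% lower. Before adjustment 7 were higher and 3 lower (p under 0.05), against 8.63% and 5.8% of all genes. Their median log2 change was 0.0035. Among 15 stress sensors and targets of Atf4 and Ddit3, Asns, the gene of asparagine synthetase, had the smallest p and read 6.25, 6.21 and 6.19 in the arrays labelled GATA3KO and 6.08, 5.96 and 5.83 in those labelled WT (log2 change 0.26 ± 0.09, SE, adjusted p = 0.195 by limma). Sesn2 (0.11) and, on a dim probe set, Atf3 (0.16) followed, and the sensors Ern1 (-0.0076) and Eif2ak3 (-0.09) were near 0. Among the 20 further genes of the entry route, which belong to the translocon, the signal recognition particle, the signal peptidase and the oligosaccharyltransferase, Magt1, an oligosaccharyltransferase subunit, had the smallest p, with 8.10, 8.06 and 8.07 in the arrays labelled GATA3KO and 8.27, 8.31 and 8.21 in those labelled WT (-0.19 ± 0.05, SE, adjusted p = 0.124 by limma). Stt3a (0.10) and Spcs3 (0.08) followed.

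Among 15 further folding enzymes Sil1 (log2 change 0.20), Erp44 (0.08) and Ero1a (-0.07), the oxidase that recharges disulfide isomerases, had the smallest p. Among 19 further degradation genes these were Derl3 (0.29), Erlec1 (0.17) and Edem3 (-0.14). Among 25 genes of transport from the ER to the Golgi they were Sar1b (0.13), Preb (-0.22) and Tmed10 (0.11). The list medians ran from -0.0084 to 0.05.

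Markers of other cells were read beside these values, because plasma cells hold very large amounts of ER transcripts. Of 10 measured plasma cell genes 0 passed, while 1.44% of all genes passed higher and 0.766% lower. The mean log2 level of the list lay between 6.71 and 6.74 in the arrays labelled GATA3KO and between 6.69 and 6.85 in those labelled WT. Jchain, which joins antibody subunits, read 7.98, 8.73 and 8.23 in the arrays labelled GATA3KO and 8.45, 9.49 and 9.34 in those labelled WT (log2 change -0.78 ± 0.26, SE, adjusted p = 0.179 by limma), and Tnfrsf17, a plasma cell receptor, was dim. The plasma cell genes went both ways, 4 up and 6 down, so their list means average over opposite changes. At an unadjusted p under 0.05, Jchain and the antibody gene Igk (-0.36) were lower, and their groups overlapped. Tnfrsf17 (0.35) and Derl3 (0.29) were higher at that level, with separate groups. Of all genes 8.63% were higher and 5.8% lower at that level. Ighm, a bright antibody gene, was level on the brightest of its 11 probe sets, with means of 12.17 in the arrays labelled GATA3KO and 12.18 in those labelled WT. Under the alternatives of the closing section that kept all arrays, its log2 change ran from -0.16 to -0.0026. None of these passed (lowest adjusted p = 0.602 by limma). Derl3 and Fkbp11 belong to this list and to the pathway lists, and Prdm1 and Irf4 are also genes of Treg cells.

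Genes of dividing cells and of myeloid cells read higher in the arrays labelled GATA3KO, as Ppic and Prdx4 did. For the counts below, 53.0% of all genes had a positive change, 1.44% passed higher and 0.766% passed lower. Of 12 measured genes of dividing cells 12 had a positive change and 6 passed, with a mean log2 level of 7.42, 7.42 and 7.51 in the arrays labelled GATA3KO and 7.04, 6.86 and 7.17 in those labelled WT. Of 14 measured myeloid genes 13 had a positive change and 1 passed, with a mean log2 level of 5.31, 5.66 and 5.91 in the arrays labelled GATA3KO and 5.22, 5.03 and 5.20 in those labelled WT. Of 11 measured B cell genes 7 had a positive change and 2 passed, with a mean log2 level between 5.68 and 5.72 in the arrays labelled GATA3KO and between 5.48 and 5.57 in those labelled WT, and Cd79a, a chain of the B cell receptor, was dim. The B cell genes that passed were Cd22, a B cell surface lectin, with a log2 change of 1.15 (adjusted p = 0.00152 by limma), and Cd74, the invariant chain of class II histocompatibility molecules, with 0.42 (adjusted p = 0.0315 by limma). The B cell list did not rise as a whole, with 4 negative changes and a median log2 change of 0.03. Ms4a1, another B cell surface protein, had the lowest at -0.40 ± 0.20 (SE, adjusted p = 0.412 by limma), and Cd79a had -0.20. The myeloid gene that passed was Lyz1, a lysozyme gene, with a log2 change of 1.44 (adjusted p = 0.0468 by limma). Lyz2, another lysozyme gene, and S100a9, a calcium-binding protein of neutrophils, had log2 changes of 1.02 and 1.10 without overlap between the groups, and neither passed (adjusted p = 0.0849 and 0.113 by limma). With each array left out in turn, Cd22 passed in all 6 fits, Lyz1 in 2 and Cd74 in 1. Without probe sets whose names end in _a_at, _s_at or _x_at, the log2 change of Lyz1, then read on another probe set, was -0.0092 (adjusted p = 0.984 by limma). Dim probe sets made up 6 of the 14 myeloid and 6 of the 11 B cell genes, among them those of Cd68 and Itgam, which define macrophages and myeloid cells. In bulk samples a change in the share of a cell type and a change in RNA per cell cannot be told apart, and the part of these markers in the Ppic and Prdx4 results was not tested.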

How the data were processed

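The authors deposited 1 table of log2 intensities for 22690 probe sets on 6 arrays, which they summarised with RMA (version not given in the sources used here), per the submitters' processing notes. The log2 scale was read from the range of the values. Gene names came from the platform annotation, in which 20393 probe sets have 1 gene. Array medians lay between 6.06 and 6.11, and the lowest correlation between any pair of arrays was 0.994. Groups were taken from the array titles.

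Groups were compared over 12394 genes with limma 3.58.1 in R 4.3.3 (lmFit and eBayes with an intensity trend, unpaired, two-sided), and p values were adjusted by the Benjamini-Hochberg method over all genes, with a threshold of 0.05. Further probe sets were read from the same fit over all 20393 probe sets. An exact permutation test of 3 against 3 arrays cannot reach that threshold, so calls rest on limma's shared spread. Same-numbered arrays were not taken as pairs, since the titles do not say that the numbers pair mice. Their deviations over all genes correlated by 0.04, -0.02 and 0.07, which cannot exclude pairing. With the replicate number as a block, 234 genes were called higher and 134 lower, against 179 and 95 without it. Promoters came from RefSeq. The fit was tested on simulated data.

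The members, classes, further lists and markers were chosen with earlier results of these data known. Full values were given for members past the threshold, for the 4 members of each class with the smallest p, for the largest rise and fall of each class, and for Hspa5, Xbp1, Atf4, Ddit3 and Atf6. The ERSE search was added after the values had been seen. Alternatives are given in the closing section.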

Additional observations from a re-analysis of the deposited data

How the results depend on the processing

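Values were recomputed under 15 alternatives, of which 6 left out 1 array. Some members had no probe set under 1 of the alternatives, described below. Ppic passed in all 15 and Prdx4 in 14, the exception being the mean of all probe sets (log2 change 0.32, adjusted p = 0.0699 by limma), which left 1 higher member. The count of lower members became 1, Hsp90b1, with the replicate block (adjusted p = 0.0118 by limma), with array quality weights (0.0284) and without WT replicate 1 (0.0146), so that it ran from 0 to 1 with 1 array left out. Array quality weights also passed Ppib (0.0463) and, among the further ER genes, 1 lower gene, Magt1 (0.0496). The other 38 measured members passed under no setting. A further setting left out probe sets whose names end in _a_at, _s_at or _x_at. Members with no other probe set, among them Hspa5, Hsp90b1, Calr and P4hb, were not read in it. Others, among them Canx, Hyou1 and Xbp1, were read on another probe set. The median log2 change was then 0.0427 for the remaining chaperones, -0.0245 for the stress factors and 0.0974 for the remaining folding enzymes. With all probe sets averaged, that of the folding enzymes was 0.0356 and that of the degradation genes -0.0442. Leaving out each array in turn put the folding enzyme median between 0.0459 and 0.0891. The settings on probe sets change which genes or probe sets enter a median. The cause of the shifts was not tested further. Of the members that did not pass, 12 changed sign in at least 1 setting, and 0 called changes reversed. Over all genes the calls, 179 higher and 95 lower, became 31 and 23 without the intensity trend, 400 and 185 with array quality weights, 35 and 27 without GATA3KO replicate 2, 51 and 51 without GATA3KO replicate 3, 38 and 24 without WT replicate 2, and 125 and 54 without WT replicate 3. No scanner files were used here, so signal over background could not be read.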
